A study of Mus musculus with 6 samples.

Results

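The 10 cardiac transcription factors Gata4, Nkx2-5, Tbx5, Tbx20, Mef2a, Mef2c, Mef2d, Hand2, Hey2 and Irx4 were examined in RNA sequencing of mouse heart tissue. The sample titles say heart, and the paper describes the tissue as left ventricular myocardium. The factors were taken by symbol from the GENCODE annotation of the gene identifiers in the expression table. All 10 of 10 were found among its 54532 identifiers. The HFpEF group (heart failure with preserved ejection fraction) was 3 wild-type male C57BL/6 mice on a high-fat diet, with 60% of kcal from fat, that drank the nitric oxide synthase inhibitor L-NAME at 0.5 g/L for 12 weeks. The Chow group was 3 wild-type male C57BL/6 mice kept on standard chow and regular water for the same 12 weeks. Each library came from a different mouse. Diet and L-NAME were always given together, so their contributions cannot be told apart. Values are FPKM, a level of the transcript that is corrected for gene length and can be compared between genes. The deposited values also carried a scaling between libraries that the sources used here do not describe, and median-of-ratios factors computed from them were already close to 1 in every library. The reads recovered from these values summed to between 13076772 and 15574914 per library in Chow and between 13461735 and 16027084 in HFpEF.

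The factors studied here bind DNA next to one another at the enhancers of heart muscle genes. GATA4, NKX2-5, TBX5 and TBX20 form the core that starts and maintains the cardiomyocyte program, the MEF2 proteins couple calcium and stress signals to contractile and metabolic genes, and HAND2 shapes ventricular growth. HEY2 and IRX4 are known for enrichment in ventricular muscle, where they hold down atrial genes, while Tbx5 is patterned between the chambers of the embryonic heart. In adult myocardium several of them are also made by cells other than cardiomyocytes, HAND2, GATA4 and TBX20 in fibroblasts and MEF2C in endothelium among them.

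HFpEF replicate 3 stood apart from the other libraries. On the first principal component of all genes tested, which held 42.3% of the variance, it lay at 75.5, against 11.6 and 12.7 for the other HFpEF libraries and between -35.8 and -31.7 for Chow. Mitochondrially encoded genes took 7.17% of its reads, 22.6% and 20.1% in HFpEF replicates 1 and 2, and 24.0% to 26.0% in Chow. It was the lowest HFpEF library for all 10 factors, and for 44.1% of all 14227 genes tested. The same held for all 22 ventricular cardiomyocyte markers, so this low level is not particular to the factors. Over the 10 factors, the median log2 ratio to Chow was -0.61 in this library, against 0.040 and -0.12 in HFpEF replicates 1 and 2. The fit of each factor is therefore given with and without this library.

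The tissue label was checked against marker genes. All 22 ventricular cardiomyocyte markers were detected in every library, led by the cardiac actin Actc1 at 2445 to 5336 FPKM. Markers of atrial cardiomyocytes were unevenly spread. The 11 atrial markers summed to 44.4, 48.0 and 597.5 FPKM in Chow replicates 1 to 3 and to 2726, 4107 and 81.1 FPKM in HFpEF replicates 1 to 3. The most abundant of them by the mean over all libraries was the atrial light chain gene Myl7, at 3.81, 0.289 and 237.1 FPKM in Chow and 975.4, 2073 and 8.60 FPKM in HFpEF. Sln was listed at 0 in Chow replicates 1 and 2, Bmp10 in all 3 Chow libraries, and Dhrs9 in Chow replicates 2 and 3 and HFpEF replicate 1. By summed FPKM, HFpEF replicates 1 and 2 and, at a lower level, Chow replicate 3 carried atrial transcripts well above the other libraries.

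None of the 10 factors differed between HFpEF and Chow at an adjusted p under 0.05 in limma, fitted over all genes with Benjamini-Hochberg adjustment, against 14 of 14227 genes overall (0.0984%). A further limit of 2 on the absolute log2 fold change left 0.0562% of all genes and none of the factors. All 10 passed the filter on low values. At an unadjusted p under 0.05 the fit marked 1 of them, Irx4, as lower, while 23.4% of all genes tested passed that level, 10.2% as higher and 13.1% as lower. The voom fit of recovered reads called none of the factors and none of all genes. The groups did not overlap for 3 of the 10 factors, Tbx20 above and Mef2d and Irx4 below, against 35.3% of all genes (15.5% above and 19.8% below). Fitted values were below 0 for 8 of the 10 factors, and for 51.2% of all genes. The median log2 fold change of the factors was -0.23, beside -0.012 over all genes.

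**Figure D1:**
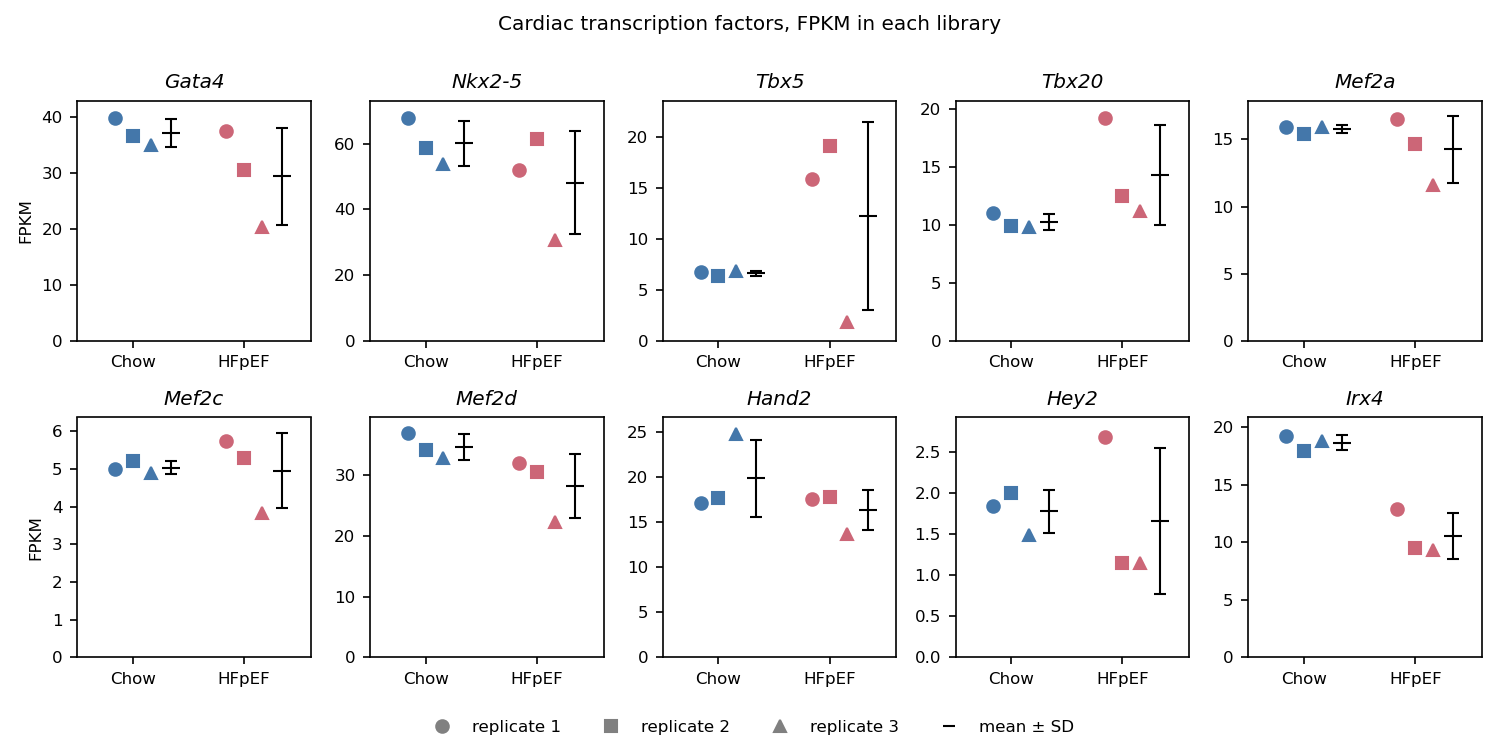
FPKM of each factor (y axis, from 0) in Chow and HFpEF, 1 point per library with the marker giving the replicate number, and the mean ± SD of 3 libraries beside them. HFpEF replicate 3 (red triangle) is the lowest HFpEF point in every panel, all HFpEF points of Irx4 lie below all Chow points, and HFpEF points of Tbx5 lie on both sides of Chow.

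Without HFpEF replicate 3, limma called 2 of the 10 factors at an adjusted p under 0.05, Tbx5 higher and Irx4 lower. That fit called 1188 of all genes tested (8.35%), 2.85% higher and 5.5% lower. The median of the factors was then -0.050 (against -0.37 without HFpEF replicate 1), and the groups did not overlap for 5 of them, against 44.5% of all genes. Nkx2-5, Gata4 and Mef2d, which had fitted values between -0.38 and -0.31 with all libraries, moved to between -0.15 and -0.080.

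**Figure D2:**
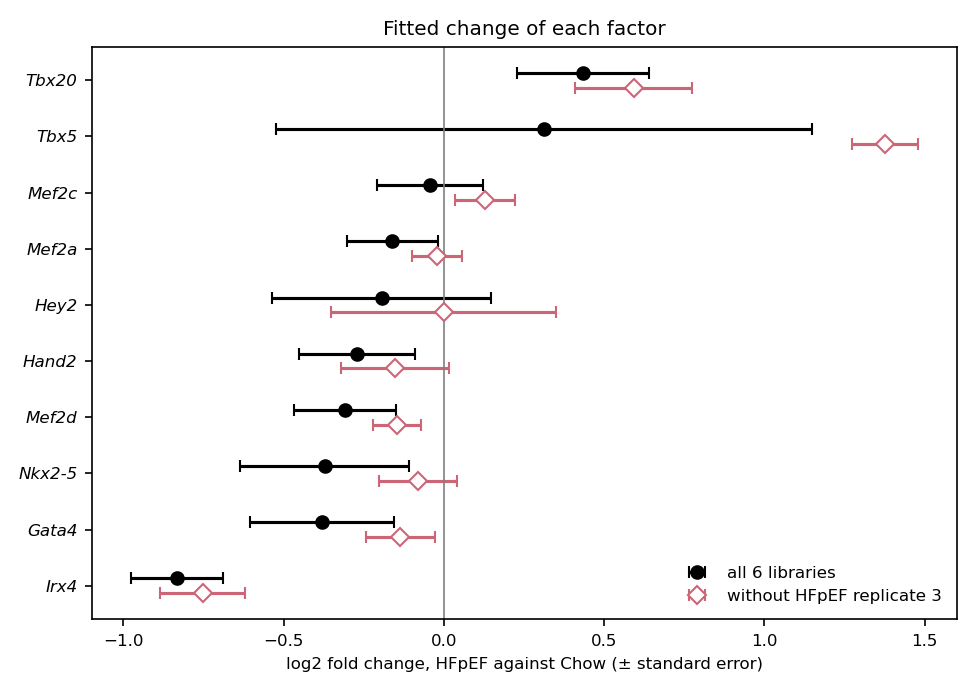
Fitted log2 fold change of each factor, HFpEF against Chow (x axis, ± standard error), from all 6 libraries (filled circles) and without HFpEF replicate 3 (open diamonds). Irx4 is lowest in both fits, at -0.83 and -0.75, and Tbx5 goes from 0.31 with a standard error of 0.84 to 1.37 with a standard error of 0.10.

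In Chow hearts the order of levels was led by Nkx2-5 at 60.1 ± 6.99 FPKM (SD, n = 3), followed by Gata4 at 37.1 ± 2.45 and Mef2d at 34.6 ± 2.09. The ranges of the last pair overlapped. Hand2 at 19.9 ± 4.28 and Irx4 at 18.7 ± 0.647 FPKM came next and overlapped each other. They were followed by Mef2a at 15.8 ± 0.296, Tbx20 at 10.2 ± 0.673, Tbx5 at 6.65 ± 0.242, Mef2c at 5.03 ± 0.169 and Hey2 at 1.78 ± 0.261 FPKM, each of these separated from its neighbour by all libraries. By mean level in HFpEF hearts the first 4 places were the same, although Nkx2-5, Gata4 and Mef2d overlapped from one to the next, as did Hand2 and Tbx20, while Irx4 stood at place 8 with 10.6 ± 2.00 FPKM, below Tbx20, Mef2a and Tbx5. The HFpEF ranges of Tbx20, Mef2a, Tbx5 and Irx4 overlapped from one to the next. Within each HFpEF library Irx4 was below Tbx20 and Mef2a. The order of Tbx20, Mef2a and Tbx5, and that of Tbx5 and Irx4, changed between libraries.

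Irx4, an Iroquois homeodomain factor known for its enrichment in ventricular myocardium, gave the clearest difference. Irx4 (ENSMUSG00000021604, chr13:73260479-73269608 of GRCm38, plus strand) was at 19.3, 18.0 and 18.8 FPKM in Chow and at 12.9, 9.49 and 9.35 FPKM in HFpEF. Every HFpEF library lay below every Chow library, and HFpEF replicates 2 and 3 were almost equal, although replicate 3 stood apart elsewhere. The HFpEF mean was 0.566 times the Chow mean. The fitted log2 fold change was -0.83 ± 0.14 (SE, 95% interval -1.18 to -0.49), with an unadjusted p of 0.000842 and an adjusted p of 0.0922 in limma. Without HFpEF replicate 3 it was -0.75 ± 0.13 with an adjusted p of 0.0296 in limma. HFpEF replicates 1 and 2, which stay in that fit, had the highest atrial marker sums, 2726 and 4107 FPKM. The part of atrial transcripts in the Irx4 result was not tested. Exact two-sided permutation tests of FPKM, 10 in all, gave p = 0.1 for Irx4, Tbx20 and Mef2d, the smallest that 3 libraries against 3 allow, and 0.3 to 1 for the other factors. Scaled to the ventricular cardiomyocyte markers, whose own median was -0.68, the fold change of Irx4 was -0.13 on the log2 scale with an adjusted p of 0.585 in limma. Between 419 and 715 recovered reads stood behind each Irx4 value.

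The sequence before the start site of Irx4 is shown because Irx4 was the factor with the clearest difference. It is from RefSeq on GRCm38.p6 (plus strand, chr13:73260247-73260478), written 5′ to 3′, and leaves out bases annotated as exon. Motifs for GATA factors (AGATAA), NKX2-5 (TNAAGTG), T-box factors (GGTGTGA), MEF2 (CTANNNNTAG), Iroquois factors (ACANNTGT), TEAD factors (GGAATG) and the E-box bound by HEY factors (CACGTG) were looked for on both strands in the 250 bases before each start site. None of these 7 letter patterns was found in the Irx4 window, so no base is in capitals.
Irx4: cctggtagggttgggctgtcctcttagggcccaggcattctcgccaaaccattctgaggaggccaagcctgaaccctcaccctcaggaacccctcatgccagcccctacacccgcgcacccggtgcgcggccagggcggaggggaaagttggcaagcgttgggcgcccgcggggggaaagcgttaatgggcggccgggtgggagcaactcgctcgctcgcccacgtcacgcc

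Irx4 shares a gene cluster with Irx1 and Irx2, while Irx3, Irx5 and Irx6 form the paralogous cluster. Fitted values were below 0 for Irx1, Irx2, Irx3 and Irx5 as well. Irx5, which shapes the gradient of repolarization across the ventricular wall, was at 3.66, 3.73 and 3.23 FPKM in Chow and 1.59, 1.32 and 1.56 FPKM in HFpEF. It showed no overlap, a log2 fold change of -1.20 ± 0.14 (SE) and an adjusted p of 0.0558 in limma, or 0.0139 without HFpEF replicate 3. Irx3, which acts in the ventricular conduction system, was at 22.0, 19.7 and 15.2 FPKM in Chow and 12.4, 8.68 and 8.19 FPKM in HFpEF. The groups were again separate, with a log2 fold change of -0.96 ± 0.21 and an adjusted p of 0.106 in limma. Irx1 was separate as well (2.17, 4.10 and 2.37 FPKM against 0.110, 0.721 and 0.988 FPKM), with a log2 fold change of -2.32 ± 0.63 and an adjusted p of 0.125 in limma. Irx2 was at 1.48, 3.04 and 2.12 FPKM in Chow and at 0.176, 1.22 and 1.55 FPKM in HFpEF, and its groups overlapped. Irx6 was at 0.0214 FPKM or lower in every library and was not tested. None of these Iroquois genes passed an adjusted p under 0.05 with all 6 libraries.

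**Figure D3:**
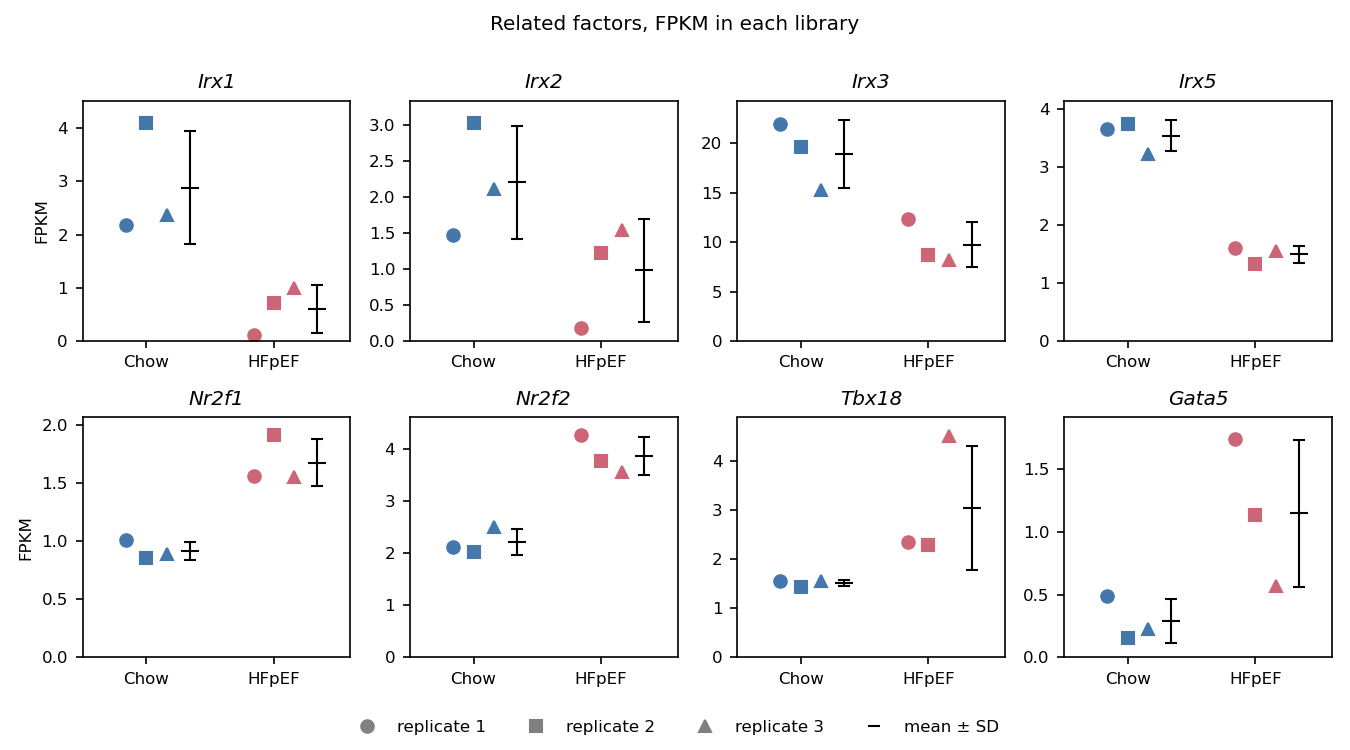
FPKM (y axis, from 0) of 4 Iroquois genes and of Nr2f1, Nr2f2, Tbx18 and Gata5, 1 point per library, with the mean ± SD of 3 libraries beside them. HFpEF points lie below all Chow points for Irx1, Irx3 and Irx5, overlap Chow for Irx2, and lie above all Chow points in the lower row. The panels were chosen after the values were seen, and Gata5 passed the filter on low values only through the HFpEF libraries.

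Tbx5, the T-box factor that binds with NKX2-5 and GATA4 and is mutated in Holt-Oram syndrome, was the factor with the widest spread between HFpEF libraries on the log2 scale. It was at 6.73, 6.38 and 6.85 FPKM in Chow, at 15.9 and 19.1 FPKM in HFpEF replicates 1 and 2, and at 1.83 FPKM in HFpEF replicate 3. The Chow libraries were within 0.47 FPKM of each other, while HFpEF libraries lay on both sides of them, at 2.39, 2.88 and 0.275 times the Chow mean. With all libraries the log2 fold change was 0.31 ± 0.84 (SE, 95% interval -1.69 to 2.32), with an adjusted p of 0.841 in limma. Without HFpEF replicate 3 it was 1.37 ± 0.10 with an adjusted p of 0.00861. Its sign turned to -0.15 without HFpEF replicate 1 and to -0.28 without replicate 2. Recovered reads numbered 1028 and 1515 in the high libraries and 165 in the low one.

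The high Tbx5 libraries were those with the most atrial transcripts. Myl4, the atrial essential light chain gene, was at 213 and 378 FPKM in HFpEF replicates 1 and 2 and at 2.58 FPKM in replicate 3. Nppa, which encodes atrial natriuretic peptide and is a target of TBX5, NKX2-5 and GATA4, was at 9.09, 15.7 and 196.5 FPKM in Chow and at 896 and 952 FPKM in HFpEF replicates 1 and 2, against 8.02 FPKM in replicate 3. Chow replicate 3, with 237.1 FPKM of Myl7, had Tbx5 at 6.85 FPKM, beside 6.73 and 6.38 FPKM in the other Chow libraries. With HFpEF replicates 1 and 2 and Chow replicate 3 left out, the log2 fold change of Tbx5 was -1.79, a value with no test because 1 HFpEF library remained. The part of atrial transcripts in the Tbx5 result was not tested.

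**Figure D4:**
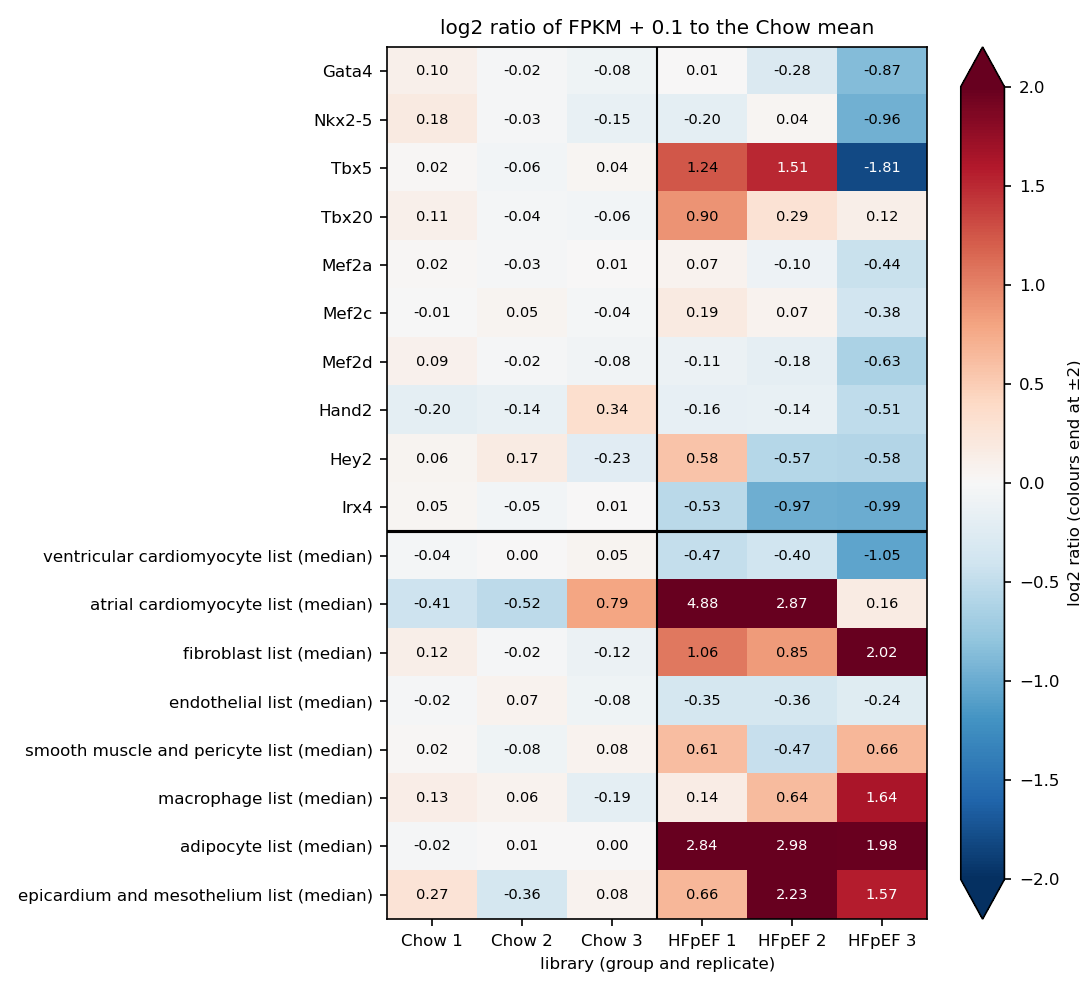
Ratio of each library (columns) to the Chow mean, as log2 of FPKM + 0.1, for the 10 factors (above the line) and for the median of 8 cell type marker lists (below it), printed in each cell, with red above and blue below the Chow mean. Tbx5 reads 1.24, 1.51 and -1.81 in HFpEF replicates 1 to 3, and the atrial list 4.88, 2.87 and 0.16.

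Among the target genes of these factors with a RefSeq promoter, Nppa is the gene that held both a T-box and an NKX2-5 pattern. Its promoter is shown with these patterns in capitals, the T-box pattern first. The window is from RefSeq on GRCm38.p6 (plus strand, chr4:148000472-148000721), 5′ to 3′. TCACACC, the reverse complement of the T-box pattern, starts 250 bases and TGAAGTG starts 241 bases before the start site.
Nppa: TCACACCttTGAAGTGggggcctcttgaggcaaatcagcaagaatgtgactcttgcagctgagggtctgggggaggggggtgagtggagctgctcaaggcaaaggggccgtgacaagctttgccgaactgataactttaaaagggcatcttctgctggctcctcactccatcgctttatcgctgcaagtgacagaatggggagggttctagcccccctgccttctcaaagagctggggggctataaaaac

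Among the 25 of 28 target genes with a RefSeq promoter, 4 held the T-box pattern (16%, against 3.85% of all genes with a promoter) and 3 the NKX2-5 pattern (12%, against 11.4%). The GATA pattern was in 10 of them (40%, against 11.4%), the TEAD pattern in 7 (28%, against 14.4%), the Iroquois pattern in 2 (8%, against 7.2%) and the MEF2 and HEY patterns in 1 each (4%, against 3.7% and 6.86%). Promoters were found for 8 of the 10 factors, without Gata4 and Tbx5, and among these the GATA pattern was in Hand2 and the TEAD pattern in Hey2 and Mef2c. Only the exact letters given were counted, so a variant of a pattern, such as TGATAA in the Nppa window, was not. A match of letters is a description of the window and does not show that a factor binds there.

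Tbx20, a T-box factor required for adult cardiomyocyte function, was at 11.0, 9.92 and 9.80 FPKM in Chow and at 19.2, 12.5 and 11.2 FPKM in HFpEF. All HFpEF libraries were above all Chow libraries, HFpEF replicate 1 by far the most and replicate 3 by only 0.13 FPKM. The log2 fold change was 0.44 ± 0.21 (SE, 95% interval -0.058 to 0.93), with an adjusted p of 0.256 in limma, and 0.59 ± 0.18 with an adjusted p of 0.115 without HFpEF replicate 3. It was 0.20 without HFpEF replicate 1. Tbx20 was the factor that remained above Chow in HFpEF replicate 3, the library in which the other 9 were below their Chow means.

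The 2 most abundant core factors overlapped between groups. Gata4, a zinc finger factor that drives hypertrophic gene expression, was at 39.8, 36.6 and 34.9 FPKM in Chow and at 37.4, 30.4 and 20.3 FPKM in HFpEF. HFpEF replicate 1 lay within the Chow range and replicate 3 far below it. The log2 fold change was -0.38 ± 0.22 (95% interval -0.92 to 0.16), with an adjusted p of 0.334 in limma, and -0.14 ± 0.11 without HFpEF replicate 3, or -0.58 without replicate 1. Nkx2-5, the homeodomain factor at the head of the cardiac program, was at 67.7, 58.6 and 54.0 FPKM in Chow and at 52.1, 61.6 and 30.8 FPKM in HFpEF. Only HFpEF replicate 3 was far from the Chow range. The log2 fold change was -0.37 ± 0.26 (95% interval -1.00 to 0.26), with an adjusted p of 0.410 in limma, and -0.080 ± 0.12 without that library, or -0.58 without HFpEF replicate 2.

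The MEF2 genes encode MADS-box factors that recruit class II histone deacetylases and are released from them by calcium signalling. Mef2d, the most abundant, was at 36.9, 34.2 and 32.8 FPKM in Chow and at 32.0, 30.6 and 22.3 FPKM in HFpEF. The groups were separate, though HFpEF replicate 1 was within 0.81 FPKM of the lowest Chow library. The log2 fold change was -0.31 ± 0.16 (95% interval -0.69 to 0.072) with an adjusted p of 0.284 in limma, and -0.15 ± 0.075 without HFpEF replicate 3. Mef2a, which supports mitochondrial and contractile genes in the adult heart, was at 15.9, 15.4 and 15.9 FPKM in Chow and at 16.5, 14.7 and 11.6 FPKM in HFpEF. Its groups overlapped, with a log2 fold change of -0.16 ± 0.14 (95% interval -0.50 to 0.18) and an adjusted p of 0.507 in limma, or -0.020 ± 0.078 without HFpEF replicate 3 and -0.27 without replicate 1. Mef2c, needed for formation of the right ventricle, was at 5.00, 5.21 and 4.88 FPKM in Chow and at 5.73, 5.30 and 3.83 FPKM in HFpEF. HFpEF replicates 1 and 2 were above all Chow libraries and replicate 3 below them, and the log2 fold change was -0.043 ± 0.16 (95% interval -0.44 to 0.35, adjusted p = 0.890 in limma), or 0.13 without HFpEF replicate 3.

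The balance within the MEF2 family does not depend on the scaling between libraries. Summed FPKM of the 3 genes was 57.8, 54.8 and 53.6 in Chow and 54.2, 50.5 and 37.7 in HFpEF. Mef2d made up 62.4% ± 1.31 of this sum in Chow (SD, n = 3) and 59.5% ± 0.846 in HFpEF. The difference of -2.91 percentage points had p = 0.1 in an exact two-sided permutation test, the smallest possible here, and the groups did not overlap. Mef2c made up 9.09% ± 0.431 in Chow and 10.4% ± 0.219 in HFpEF, a difference of 1.32 points without overlap (exact permutation p = 0.1). Mef2a made up 28.5% ± 1.11 and 30.1% ± 0.916, and its groups overlapped (exact permutation p = 0.2). HFpEF replicate 3, in which the summed level was lowest, had shares of 59.1% for Mef2d and 10.2% for Mef2c, close to those of the other HFpEF libraries. None of these 3 tests could pass an adjusted p of 0.05.

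**Figure D5:**
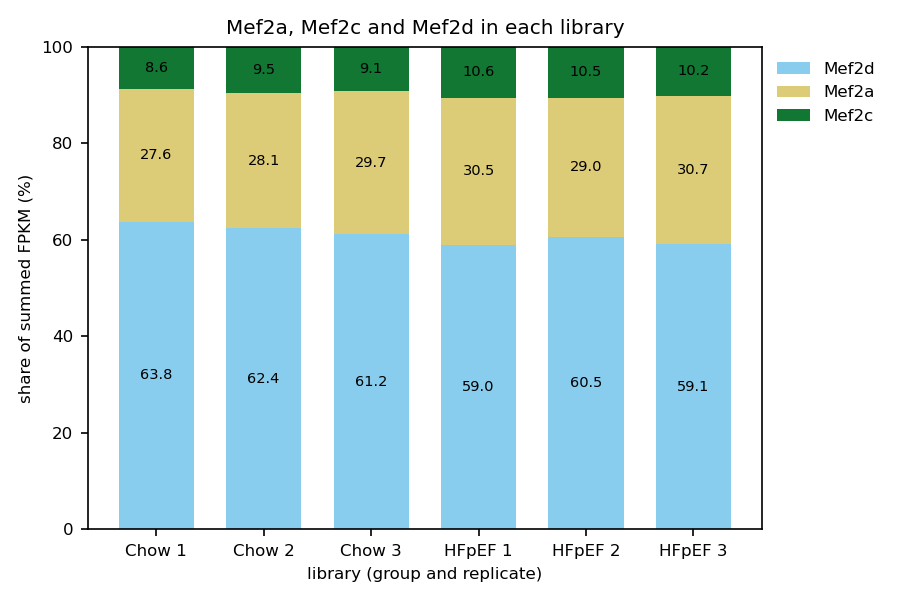
Share of Mef2d, Mef2a and Mef2c in their summed FPKM (y axis, percent) in each library (x axis), as stacked bars with the value printed in each segment. Mef2d takes 61.2% to 63.8% in Chow and 59.0% to 60.5% in HFpEF, and Mef2c 8.65% to 9.51% and 10.2% to 10.6%.

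The basic helix-loop-helix factors showed no separation of the groups. Hand2, which directs ventricular growth in the embryo, was at 17.1, 17.7 and 24.8 FPKM in Chow and at 17.5, 17.7 and 13.7 FPKM in HFpEF. Chow replicate 3 was high and HFpEF replicate 3 low, and the remaining 4 libraries lay within 0.66 FPKM of each other. The log2 fold change was -0.27 ± 0.18 (95% interval -0.71 to 0.16) with an adjusted p of 0.389 in limma, -0.15 ± 0.17 without HFpEF replicate 3 and -0.10 without Chow replicate 3. Hey2, a repressor downstream of Notch that keeps atrial genes low in the ventricle, was at 1.85, 2.00 and 1.49 FPKM in Chow and at 2.69, 1.16 and 1.15 FPKM in HFpEF. HFpEF libraries lay on both sides of Chow, and the log2 fold change of -0.19 ± 0.34 had a 95% interval of -1.02 to 0.63 and an adjusted p of 0.749 in limma. It was -0.58, -0.0047 and -0.00060 without HFpEF replicates 1, 2 and 3, and -0.11 and -0.31 without Chow replicates 2 and 3. Hey2 values rested on 83 to 171 recovered reads per library.

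Exons of 3 factors overlap those of other genes, and reads in the shared bases cannot be assigned without strand, which is not given in the sources used here. Hand2 shares 461 of its 2351 exon bases (19.6%) with the antisense transcript Hand2os1, which was at 5.08, 5.04 and 5.29 FPKM in Chow and 5.88, 5.29 and 3.55 FPKM in HFpEF. Mef2d shares 8.87% of its exon bases with 1700113A16Rik and Mef2a 2.06% with Lysmd4. 1700113A16Rik was at 0.755 FPKM or lower in every library, and Lysmd4 at 4.66 to 5.22 FPKM in Chow and 2.82 to 4.69 FPKM in HFpEF.

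The levels of the factors were set beside the ventricular cardiomyocyte markers, since most of them are made by cardiomyocytes. All 22 markers had fitted values below 0, and 21 of them were below Chow without overlap (19.8% of all genes). Their median log2 fold change was -0.68, or -0.44 without HFpEF replicate 3. None passed an adjusted p under 0.05 in limma with all libraries and 15 did without HFpEF replicate 3, each lower. The mean log2 level of the list stood -0.49, -0.46 and -1.16 from its Chow mean in HFpEF replicates 1 to 3. In bulk tissue, fewer cells of a type and less RNA per cell cannot be told apart.

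Relative to this list in the same library, 6 of the 10 factors (Gata4, Tbx20, Mef2a, Mef2c, Mef2d and Hand2) were above Chow in every HFpEF library. On the same scale 68.6% of all genes were above Chow without overlap, and the median log2 fold change was 0.67 over all genes and 0.45 over the factors. The difference was 1.14 on the log2 scale for Tbx20, 0.66 for Mef2c, 0.54 for Mef2a, 0.43 for Hand2, 0.39 for Mef2d and 0.32 for Gata4, each with p = 0.1 in an exact two-sided permutation test. With the median of the list in place of its mean, Gata4 (0.29) and Hand2 (0.40) had an exact permutation p of 0.2 and their groups overlapped, while the other 4 kept p = 0.1. Irx4 differed by -0.13 from Chow on this scale (exact permutation p = 0.7), with overlapping groups. The difference was 0.062 without HFpEF replicate 2 and -0.28 without HFpEF replicate 3 (exact permutation p = 0.7 and 0.1). Nkx2-5, Tbx5 and Hey2 overlapped as well.

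Markers of other cells also differed between these libraries. Fibroblast markers were above Chow without overlap for 11 of 13 (15.5% of all genes). Their summed FPKM was 773 to 968 in Chow and 1456, 1520 and 6391 in HFpEF replicates 1 to 3. Gsn was the most abundant over all libraries, and Col1a1 was at 2252 FPKM in HFpEF replicate 3. The 11 macrophage markers summed to 245 to 308 FPKM in Chow and 303, 412 and 984 FPKM in HFpEF, led by Lyz2. Endothelial markers had fitted values below 0 for 12 of 13, with 6 below Chow without overlap (19.8% of all genes). None of them passed an adjusted p under 0.05 in limma with all libraries. Of 12 adipocyte markers, 10 were tested, 5 with fitted values above 0 and 5 below. Cfd, Car3, Cidec and Adipoq rose at an adjusted p under 0.05 in limma, while Fabp4 (-0.49), Lpl (-0.64) and Slc2a4 (-0.72 on the log2 scale), which other cells also express, were below Chow without overlap. Cfd, Cidec and Adipoq were listed at 0 in every Chow library, and Cfd was at 35.3, 37.8 and 22.9 FPKM in HFpEF. Cfd, Cidec and Adipoq thus passed the filter on low values only through the HFpEF libraries. The direction of their change was fixed by that filter, and their adjusted p adds no support for it. Epicardial and mesothelial markers were above Chow without overlap for 6 of 8 (15.5% of all genes). Of 10 smooth muscle and pericyte markers tested, 7 had fitted values above 0 and 3 below, with a median of 0.20. Of these 3, 2 were below Chow without overlap (19.8% of all genes). Acta2, the most abundant by the mean over all libraries, at 53.2, 73.1 and 77.9 FPKM in Chow, was at 422, 48.8 and 262 FPKM in HFpEF. The part of these cells in the levels of the factors was not tested.

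Target genes known to be bound or activated by these factors were mostly lower in HFpEF. Of 28 such genes, 23 had fitted values below 0, 21 were below Chow without overlap and 1 above it (19.8% and 15.5% of all genes), and the median log2 fold change was -0.51, or -0.32 without HFpEF replicate 3, beside -0.012 over all genes. None passed an adjusted p under 0.05 with all libraries, 14 were lower and 1 higher at an unadjusted p under 0.05, and 13 passed the adjusted threshold without HFpEF replicate 3 (12 lower and 1 higher, limma). Of the 28, 14 are also in the ventricular marker list. The smallest p belonged to Myl2, the ventricular regulatory light chain, at 2197, 2361 and 2275 FPKM in Chow and 1203, 1216 and 854 FPKM in HFpEF. All HFpEF libraries were below Chow, with a log2 fold change of -1.08 ± 0.21 and an adjusted p of 0.0989 in limma. Nppb, which encodes brain natriuretic peptide, was at 16.5, 37.1 and 40.2 FPKM in Chow and 75.1, 52.4 and 44.6 FPKM in HFpEF, above Chow without overlap, with a log2 fold change of 0.94 ± 0.37 (adjusted p = 0.202 in limma).

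Of 29 related cardiac transcription factors, 23 were tested and none passed an adjusted p under 0.05 in limma with all libraries. At an unadjusted p under 0.05, 5 were higher and 3 lower (10.2% and 13.1% of all genes), and the groups did not overlap for 6 above and 5 below (15.5% and 19.8%). Their median log2 fold change was -0.0098, or 0.092 without HFpEF replicate 3. Gata5, counted as higher and above, was at 0.493, 0.156 and 0.227 FPKM in Chow, on 6 to 23 recovered reads. It was at 1.74, 1.13 and 0.569 FPKM in HFpEF. Gata5 thus passed the filter on low values only through HFpEF, which fixed its direction. Nr2f2, an orphan nuclear receptor known for setting atrial identity, was at 2.13, 2.03 and 2.50 FPKM in Chow and 4.28, 3.77 and 3.56 FPKM in HFpEF. It was above Chow in every HFpEF library. Its log2 fold change was 0.78 ± 0.14 with an adjusted p of 0.0963 in limma, or 0.0277 without HFpEF replicate 3. Nr2f1, its paralog, was at 1.01, 0.853 and 0.893 FPKM against 1.56, 1.91 and 1.56 FPKM, with a log2 fold change of 0.80 ± 0.18 (adjusted p = 0.112 in limma). Srf, the MADS-box partner of myocardin and the most abundant of the list, was at 31.3 to 38.3 FPKM in Chow and 28.9 to 37.3 FPKM in HFpEF, with a log2 fold change of -0.0098 ± 0.14.

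All 25 cofactors and regulators of these factors were tested, and none passed an adjusted p under 0.05 in limma with all libraries. There were 2 higher and 2 lower at an unadjusted p under 0.05 (10.2% and 13.1% of all genes), and 2 above and 7 below Chow without overlap (15.5% and 19.8%), with a median log2 fold change of -0.12, or -0.052 without HFpEF replicate 3. Smyd1, a muscle methyltransferase that acts upstream of Hand2, was at 119.4, 124.7 and 119.2 FPKM in Chow and 88.7, 93.4 and 47.1 FPKM in HFpEF, a log2 fold change of -0.73 ± 0.27 (adjusted p = 0.183 in limma). It was the 1 cofactor that passed without HFpEF replicate 3, with a smaller log2 fold change of -0.41 and an adjusted p of 0.0185 in limma. Camta1 was at 7.63, 7.67 and 8.17 FPKM against 6.61, 5.66 and 3.66 FPKM, and Ppp3ca, the catalytic subunit of calcineurin that acts on NFAT and MEF2, was at 7.57, 7.70 and 7.90 FPKM against 9.31, 8.75 and 10.2 FPKM. Both were separate between groups, with adjusted p of 0.179 and 0.173 in limma. Nfatc4 was at 1.42 to 1.69 FPKM in Chow and at 2.26, 2.18 and 6.02 FPKM in HFpEF.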

How the data were processed

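Total RNA from heart tissue of 3 Chow and 3 HFpEF mice, left ventricular myocardium by the paper's description, was sequenced. The deposited values are FPKM, which the authors made by HISAT2 alignment and featureCounts quantification of clean reads. The submitters' processing notes name GRCm38 (mm10), and the annotation is not given in the sources used here. Gene names, exon lengths and coordinates came from GENCODE M21, which held 54495 of the 54532 identifiers. At a relative tolerance of 1e-06, FPKM times exon length gave whole multiples of 1 step for 96.1% to 96.2% of values above 0, which gave the recovered reads.

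After median-of-ratios rescaling, log2(FPKM + 0.1) was fitted with limma 3.58.1 in R 4.3.3 (lmFit, eBayes with trend and robust) for genes that reached 0.5 FPKM in 3 or more libraries. Fold changes are on this log2(FPKM + 0.1) scale, which understates changes of low genes. P-values were adjusted by Benjamini-Hochberg over all 14227 genes. FPKM of each factor, shares and levels relative to cardiomyocyte markers were compared by exact two-sided permutation tests, 10 for FPKM, 3 for shares and 10 for relative levels. The fit was tested on simulated data in which 200 genes were changed by 3 on the log2 scale. Every simulated gene had the same spread, and no library was outlying. This does not measure the power of the fit for changes as small as those of the factors. The factors, gene lists and alternatives were chosen with earlier results of these data known. The genes named were all 10 factors, genes overlapping their exons and, per list, genes with an adjusted p under 0.05, up to 4 with the smallest unadjusted p under 0.05 and up to 3 most abundant. Further genes (Irx1, Irx2, Irx6, Gata5, Tbx18 and members given as examples of a cell type or target) were named after their values were seen. Not every gene that this choice covers is reported here.

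Alternatives were FPKM as deposited, quantile normalization, scaling to the FPKM sum without mitochondrial genes or to ventricular markers, a filter at 1 FPKM or none, a pseudocount of 0.01 or 1, plain eBayes, a replicate block, voom on recovered reads, the median of the marker list, leaving out each library and, added after the data were seen, leaving out the 3 libraries highest in atrial transcripts.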

Additional observations from a re-analysis of the deposited data

How the results depend on the processing

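Of 17 alternatives with a test over all genes, no factor passed an adjusted p under 0.05 in limma except without HFpEF replicate 3, where 2 did (Tbx5 at 1.37 and Irx4 at -0.75 on the log2 scale), so the number called ran from 0 to 2 when each library was left out. The number of factors without overlap ran from 3 to 6 when each library was left out (6 without HFpEF replicate 1, against 47.5% of all genes). It was 6 when scaled to ventricular markers (69.1%), 2 under quantile normalization (32.3%) and 2 without mitochondrial genes in the sum (43.2%). The median log2 fold change of the factors ran from -0.37 to -0.050 when each library was left out, without HFpEF replicates 1 and 3, and was 0.45 when scaled to ventricular markers, where the median over all genes was 0.67, 0.013 when scaled to the FPKM sum without mitochondrial genes and -0.69 without the 3 libraries highest in atrial transcripts. Scaling to ventricular markers reversed Gata4 (0.32), Nkx2-5 (0.33), Mef2a (0.54), Mef2c (0.64), Mef2d (0.39), Hand2 (0.43) and Hey2 (0.47). Scaling to the FPKM sum without mitochondrial genes moved the median over all genes to 0.24 and reversed Mef2a (0.091), Mef2c (0.21) and Hey2 (0.044). Tbx5 was -0.15 without HFpEF replicate 1, -0.28 without replicate 2 and -1.79 without the libraries highest in atrial transcripts, and Mef2c ran from -0.16 to 0.13 when each library was left out, the last without replicate 3. Irx4 stayed below 0 under all 18 alternatives, from -0.99 to -0.13, and relative to ventricular markers it ran from -0.28 to 0.062 when each library was left out, the last without HFpEF replicate 2. The cause of these shifts was not tested.

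The number of all genes called was 14, against 3 and 5 with pseudocounts of 1 and 0.01, 33 with plain eBayes, 77 without mitochondrial genes in the sum, 106 when scaled to ventricular markers, 0 with voom, 2 without each Chow library in turn, and 3, 53 and 1188 without HFpEF replicates 1, 2 and 3. Deviations from the group mean had correlations of -0.041, -0.073 and -0.057 between Chow and HFpEF libraries of the same replicate number. With 3 libraries per group and HFpEF replicate 3 outlying, these values cannot decide whether the samples were paired. With the replicate block 0 factors and 2 genes were called.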
